A study of Mus musculus with 7 samples.

Results

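Of the odorant receptor genes of the mouse, the largest gene family of its genome, a few have served as the models on which receptor choice, axon targeting and ligand binding were worked out. Members were named for that history by a rule that uses no measured level: Olfr2 (I7), Olfr16 (MOR23), Olfr17 (P2), Olfr73 (mOR-EG), Olfr151 (M71), Olfr160 (M72) and Olfr78, a receptor known for its expression outside the nose. They are 7 of 1107 genes with an Olfr symbol and digits among the 54532 genes of the deposited tables, and all 7 were matched. In what follows, P2 is the receptor and ages are written as postnatal days.

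Odorant receptors are G protein-coupled receptors. Each mature olfactory sensory neuron expresses a single receptor gene from a single allele, so in a pool of neurons the level of a receptor follows both how many neurons chose it and how much RNA each of them holds. Neurons that chose the same receptor send their axons to shared glomeruli in the olfactory bulb, and most receptors are chosen only within a restricted zone of the epithelium.

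Messenger RNA was sequenced from cells sorted by fluorescence out of the olfactory epithelium and pooled. The mature sensory neurons were taken from OMP-GFP mice at days 2, 7 and 16 (3 libraries), and the intermediate progenitor cells, here called progenitors, from Neurog1-GFP mice at days 3, 7, 9 and 16 (4 libraries). OMP is a protein of mature olfactory neurons and Neurog1 a transcription factor of their precursors, and the reporter of each line marked the sorted cells. Population and line coincide and cannot be told apart, each age is 1 library per population, and the labels name no separate animals, strain or sex, so a p-value here measures the spread between libraries, age included.

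Each library held 24203965 to 25930727 counts on genes, and receptor genes held 1.53% to 1.62% of them in mature neurons and 0.650% to 0.808% in progenitors. Neurog1 stood at 0.84 to 1.85 TPM (a level scaled for transcript length and library total) in mature neurons and at 292 to 698 TPM in progenitors. Omp did not separate the pools, with 1066 to 1630 TPM in mature neurons and 1323 to 2371 TPM in progenitors. Of the 10 mature neuron markers, which include Omp, 9 were called higher in mature neurons and 0 lower, where 28.8% and 30% of all genes were. The 10 mature neuron markers together summed to 19696 to 29876 TPM in mature neurons and to 5571 to 8680 TPM in progenitors, so the progenitor pools also held transcripts of mature neurons. The 10 immature neuron markers summed to 4562 to 5434 TPM in progenitors and to 1272 to 1829 TPM in mature neurons, with 9 called lower in mature neurons and 0 higher. The 10 progenitor markers summed to 1594 to 2318 TPM in progenitors and to 93.4 to 178 TPM in mature neurons. The progenitor pools thus also held many transcripts of immature neurons. The part of mature or immature neurons in the receptor levels of the progenitor pools was not tested.

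The 7 genes lie on 4 chromosomes (GRCm38, GENCODE M21), and the coding sequence of each is 1 uninterrupted block within a single exon. Olfr2 (chromosome 7, 106995399 to 107006072, minus strand) and Olfr17 (chromosome 7, 107093220 to 107099808, plus strand) lie 87148 bases apart in the same receptor cluster. Olfr78, of the class I receptors, lies on the same chromosome at 102738511 to 102759471 on the minus strand. Olfr160 (chromosome 9, 37708964 to 37716250) and Olfr151 (chromosome 9, 37729977 to 37731104) are neighbours on the minus strand, 13727 bases apart. Olfr16 lies on chromosome 1 (172950409 to 172958357, plus strand) and Olfr73 on chromosome 2 (88032288 to 88037699, minus strand).

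The stretch below runs from the end of the third transmembrane helix into the second intracellular loop, the most recognisable signature of odorant receptors, and shows for 4 members what receptors share in sequence. It is 30 bases of the coding sequence from the GENCODE M21 transcripts, 5′ to 3′ on the coding strand, with the aspartate and arginine codons in capitals.
Olfr16 (MOR23): atgggttatGATCGTtatgtggctatttgt
Olfr17 (P2): atggcatatGACCGCtacatggcgatctgt
Olfr73 (mOR-EG): atggcttatGACAGGtttgtggccatccgc
Olfr78: atggcctttGACCGGtacgtggctatctgc
The stretch was located as the closest in-frame match to the signature, so the frame of the aspartate and arginine codons was set in advance. These 4 are the members whose stretch no other member repeated, so the differences between their codons follow from that choice.

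M71 and M72 are the near-identical pair of the set, both known to respond to acetophenone. Their coding sequences matched at 899 of 929 aligned bases (96.8%), while the other 20 pairs of members lay between 56.0% and 60.5%. The reference M71 differed from M72 by 1 missing base in a run of G, in capitals in the window below, which covers bases 702 to 781 of the M71 coding sequence and bases 702 to 782 of that of M72.
Olfr151 (M71): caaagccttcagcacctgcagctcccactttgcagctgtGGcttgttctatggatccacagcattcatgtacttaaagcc
Olfr160 (M72): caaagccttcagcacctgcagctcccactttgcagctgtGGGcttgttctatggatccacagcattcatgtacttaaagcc
The reading frame of the reference M71 ended after 258 codons, against 309 codons in M72, and GENCODE lists M71 as a polymorphic pseudogene. Of all stretches of 50 bases in the M71 transcripts, 32.9% also occurred in M72, and of all stretches of 100 bases 12.2% did. Reads from these stretches may be assigned to either gene or to neither, so the counts of M71, which were low, and to a lesser degree those of M72 are uncertain. Olfr78 shares 926 exonic bases with Olfr560, a receptor on the same strand at 0.72 to 5.46 TPM, and its values are uncertain for the same reason. No other member overlaps a gene, and none of the other 4 shares a stretch of 100 bases with another gene.

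The first question was how strongly each receptor was expressed in mature neurons and in their progenitors. The P2 receptor was the highest of the set in both pools, and the 7 spanned almost the full range of receptor levels. In mature neurons, mean TPM ran in the order Olfr17, Olfr73, Olfr16, Olfr160, Olfr78, Olfr2 and Olfr151, which ranked 22, 84, 176, 380, 624, 741 and 1037 of 1107 receptors. The order was the same in progenitors, at ranks 66, 74, 238, 334, 454, 748 and 992. The median receptor averaged 8.68 TPM in mature neurons and 3.88 TPM in progenitors, and Olfr536 led both pools with 167 TPM and 135 TPM. In mature neurons the range of each receptor from Olfr73 to Olfr2 overlapped that of the next in that order. Olfr73 lay wholly above Olfr160, Olfr78 and Olfr2. Within each mature library, however, Olfr73 exceeded Olfr16, Olfr16 exceeded Olfr160 and Olfr160 exceeded Olfr78. Olfr78 exceeded Olfr2 at days 2 and 7 and was below it at day 16. Olfr17 lay above and Olfr151 below all the others. In progenitors Olfr17 overlapped Olfr73, and each receptor from Olfr16 to Olfr151 overlapped the next, with a gap only between Olfr73 and Olfr16.

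**Figure D1:**
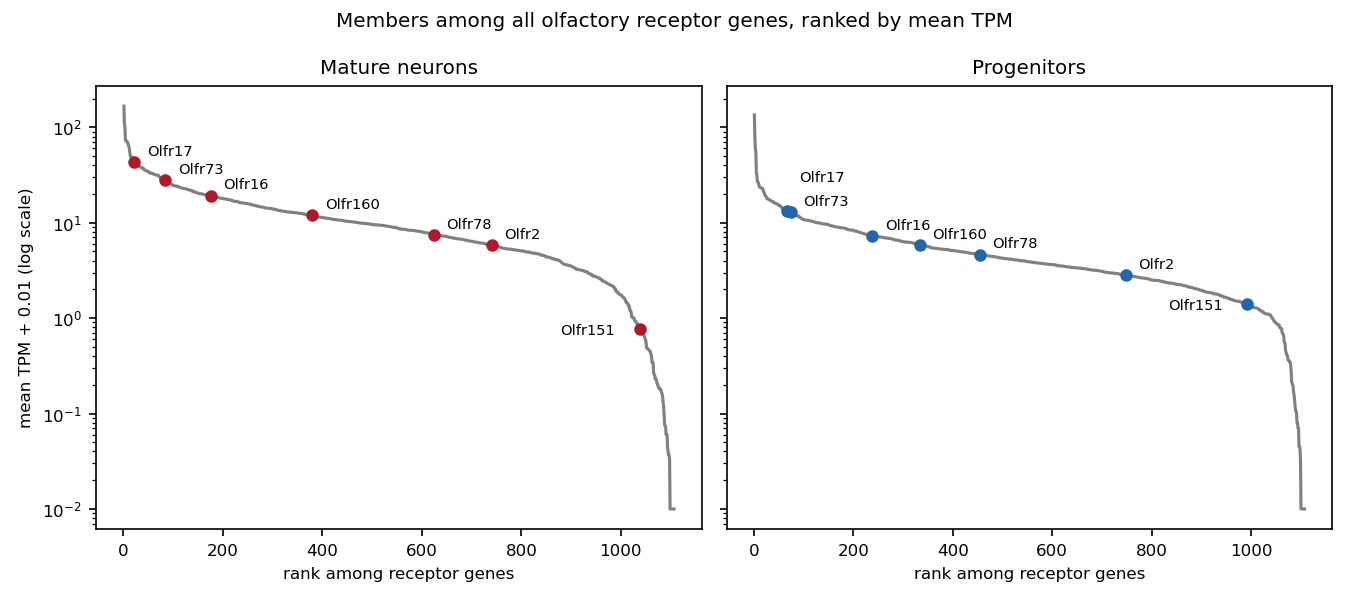
Mean TPM plus 0.01 (log scale) of the 1107 receptor genes against their rank, in mature neurons (left, mean of 3 libraries) and progenitors (right, mean of 4 libraries), with the 7 reference receptors as points on the grey curve. Olfr17 ranks 22 and Olfr151 ranks 1037 in mature neurons.

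In mature neurons, 5 of the 7 receptors were higher than in progenitors (71.4%) and 0 were lower (edgeR quasi-likelihood test, Benjamini-Hochberg adjusted p under 0.05 over all 17975 genes tested). Over all 1070 receptor genes tested the shares called were 72.6% higher and 5.14% lower, and over all genes they were 28.8% higher and 30% lower, so the members' count was close to that of receptors in general. The median log2 fold, mature neurons over progenitors, was 1.16 over the 7 and 1.21 over all receptors tested, against 0.01 over all genes. In these sorted pools, fewer cells that chose a receptor and less receptor RNA per cell cannot be told apart.

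The P2 receptor, the classic subject of axon mapping studies, showed the largest difference of the 7. Olfr17 stood at 40.7, 35.5 and 52.9 TPM in mature neurons of days 2, 7 and 16, against 12.6, 13.4, 14.7 and 12.3 TPM in progenitors of days 3, 7, 9 and 16. Every mature neuron library was above every progenitor library (43.0 ± 8.91 TPM, SD, n = 3, and 13.2 ± 1.06 TPM, SD, n = 4). The difference came to 1.85 on the log2 scale (SE 0.15, edgeR adjusted p = 3.55e-05).

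MOR23, known for its response to lyral, was next in size of difference. Olfr16 had 25.7, 20.8 and 11.2 TPM in mature neurons of days 2, 7 and 16, against 6.81, 7.14, 7.01 and 7.93 TPM in the 4 progenitor libraries in order of age. The groups did not overlap, and the day 16 mature library was the lowest of its group and the closest to the progenitors, at 1.41 times the progenitor value of the same day, against 2.91 times at day 7. The log2 fold came to 1.54 (SE 0.25, edgeR adjusted p = 0.000924).

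The eugenol receptor mOR-EG followed. Olfr73 had 32.6, 30.6 and 20.4 TPM in mature neurons of days 2, 7 and 16, against 11.9, 11.5, 11.4 and 16.5 TPM in progenitors by age. The groups did not overlap, and they came nearest at day 16, where the mature library was at its lowest and the progenitor library at its highest. The log2 fold was 1.21 (SE 0.20, edgeR adjusted p = 0.00107).

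Olfr160 (M72) had 12.2, 14.5 and 9.0 TPM in mature neurons of days 2, 7 and 16, against 6.22, 4.65, 5.33 and 7.01 TPM in progenitors by age. These groups did not overlap either, and the log2 fold was 1.13 (SE 0.18, edgeR adjusted p = 0.000925).

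**Figure D2:**
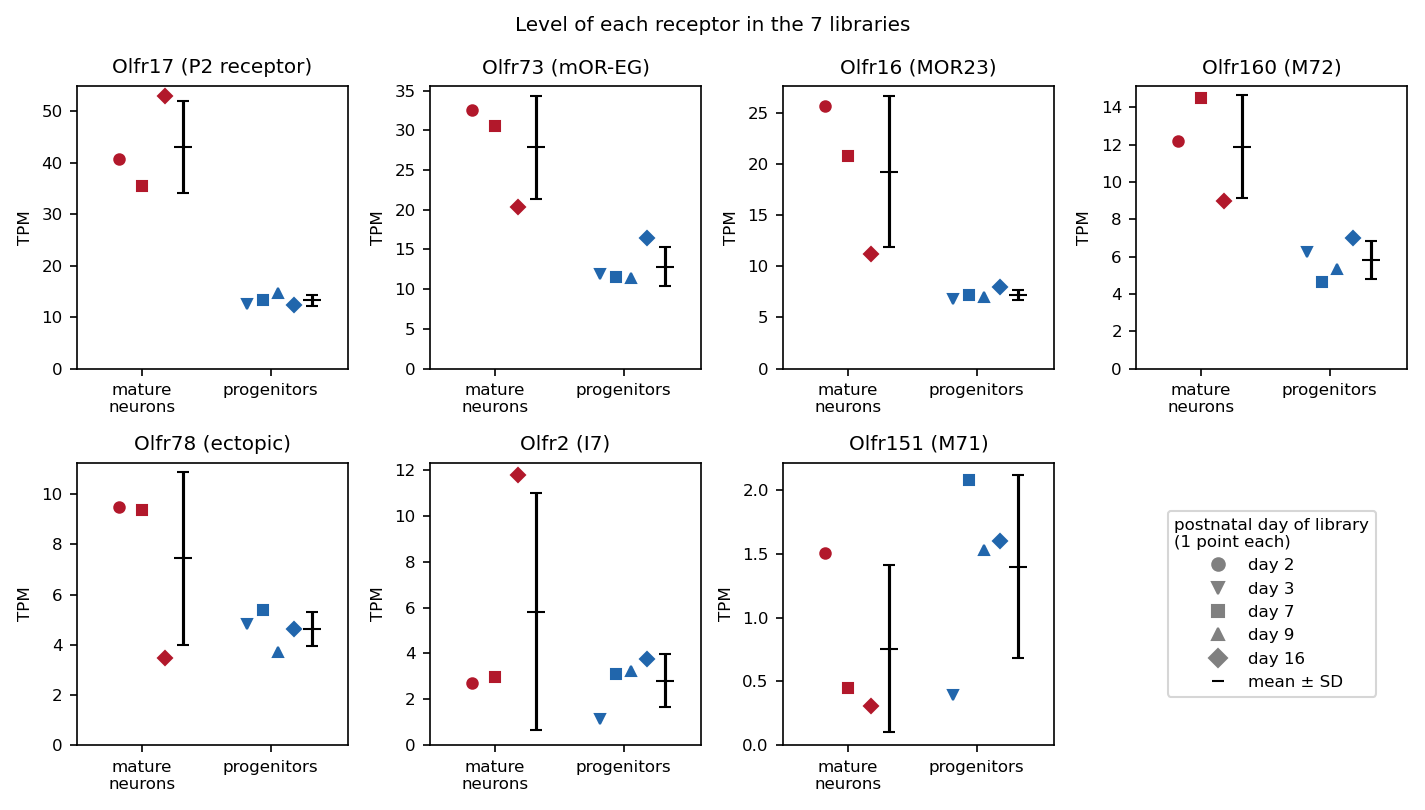
TPM of each receptor in the 3 mature neuron libraries (red, left in each panel) and the 4 progenitor libraries (blue), 1 point per library with its shape giving the postnatal day, and the mean ± SD in black; each panel has its own axis from 0. The groups do not overlap for Olfr17, Olfr73, Olfr16 and Olfr160 and overlap for Olfr78, Olfr2 and Olfr151.

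The remaining 3 receptors overlapped between the pools. How many of all receptors overlap in this way was not counted, so the split is not a trait of the members. Of all receptors tested, 72.6% were called higher in mature neurons. Olfr78, a receptor of short-chain fatty acids known from vascular smooth muscle and the carotid body, had 9.49, 9.38 and 3.46 TPM in mature neurons of days 2, 7 and 16, against 4.83, 5.37, 3.72 and 4.61 TPM in progenitors by age. The mature libraries of days 2 and 7 were above all progenitors and that of day 16 was below them all. Its log2 fold of 0.86 (SE 0.33) was just past the threshold (edgeR adjusted p = 0.0488). The call was lost on log2(TPM + 1) with limma (adjusted p = 0.195), in the libraries of days 7 and 16 with age as a block (0.43, adjusted p = 0.261) and without either of the other mature libraries (0.63 and 0.68), whereas without the day 16 mature library the log2 fold was 1.21 (edgeR adjusted p = 0.000243). Leaving out any single progenitor library also lost the call, at adjusted p-values between 0.0655 and 0.109 (edgeR). The 8 smooth muscle markers summed to 5.64 to 8.93 TPM in mature neurons and 10.2 to 15.5 TPM in progenitors. Of the 7 tested, 0 were higher in mature neurons and 2 lower, where 28.8% and 30% of all genes were. Smtn averaged 0.60 TPM in mature neurons and 5.54 TPM in progenitors, and Lmod1 0.11 and 1.48 TPM. Acta2, Tagln and Myl9 had higher means in mature neurons, and Myh11, Cnn1 and Des lower ones. The part of these markers in the Olfr78 level was not tested.

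Olfr2 (I7), the octanal receptor, had 2.71, 2.99 and 11.8 TPM in mature neurons of days 2, 7 and 16, against 1.13, 3.08, 3.23 and 3.77 TPM in progenitors by age. The day 16 mature library alone stood above the progenitors. At day 7 the mature value was 0.971 times that of progenitors, and at day 16 it was 3.12 times. The log2 fold was 1.16 (SE 0.50, edgeR adjusted p = 0.0778) and was 0.24 without the day 16 mature library (edgeR adjusted p = 0.533). It passed the threshold by DESeq2 (adjusted p = 0.0330), with age as a block (adjusted p = 0.0402) and without the day 2 mature library (adjusted p = 0.0344).

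Olfr151 (M71) was near the floor of the receptor range. It had 17, 5 and 3 counts in mature neurons of days 2, 7 and 16 (1.51, 0.45 and 0.31 TPM), against 4, 16, 17 and 20 counts in progenitors by age (0.39, 2.08, 1.53 and 1.6 TPM). The mature library of day 2 came close to the progenitors of days 7 to 16, and the progenitor library of day 3 lay among the older mature libraries, so the groups overlapped. The log2 fold of -0.60 (SE 0.66, edgeR adjusted p = 0.463) was -1.97 with age as a block in the libraries of days 7 and 16 (edgeR adjusted p = 0.0259). In mature neurons M72 exceeded its near-identical neighbour M71 in each library, with 11.9 ± 2.75 TPM against 0.757 ± 0.656 TPM (SD, n = 3). In GENCODE M21 the exons of M71 cover 1128 bases, little more than its coding sequence, and those of M72 cover 3492 bases. The part of the short annotation and of the shared stretches in the low level of M71 was not tested.

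The second question was whether a receptor held a different share of all receptor transcripts in the pools, which sets aside the lower total of receptor RNA in progenitors. The 7 together held 0.981%, 0.868% and 0.857% of receptor TPM in mature neurons of days 2, 7 and 16, against 0.860%, 0.756%, 0.737% and 0.833% in progenitors by age, and these ranges overlapped. Within receptor counts, 0 of the 7 shares were called different (edgeR over 1068 receptors), with 2 at an unadjusted p under 0.05 and 1 called by limma on TPM shares. Of all 1068 receptors, 289 were at an unadjusted p under 0.05 by edgeR and 136 were called by limma. Over all receptors, 5.99% were called higher and 7.77% lower in mature neurons, 64 and 83 genes. With age as a block the split was 16 higher and 66 lower, and without the day 16 mature library the calls numbered 431.

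P2 held 0.414%, 0.348% and 0.551% of receptor counts in mature neurons of days 2, 7 and 16, against 0.293%, 0.291%, 0.283% and 0.253% in progenitors by age. Its share was higher in every mature library, but the log2 fold of 0.64 (SE 0.27) missed the threshold (edgeR adjusted p = 0.146). M71 lay at the other end, with a log2 fold of its share of -1.75 (SE 0.61, edgeR adjusted p = 0.0849). It was called lower by limma (-2.07, adjusted p = 0.0468), without the day 2 mature library (-2.77, edgeR adjusted p = 0.00735) and without the day 3 progenitor library (-2.02, edgeR adjusted p = 0.0468). The shares of Olfr73, Olfr2, Olfr160, Olfr78 and Olfr16 had log2 folds of 0.01, -0.02, -0.07, -0.35 and 0.34. Without the day 16 mature library, the share of Olfr16 was called higher (0.59, edgeR adjusted p = 0.0368) and that of Olfr2 lower (-0.93, edgeR adjusted p = 0.0121).

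**Figure D3:**
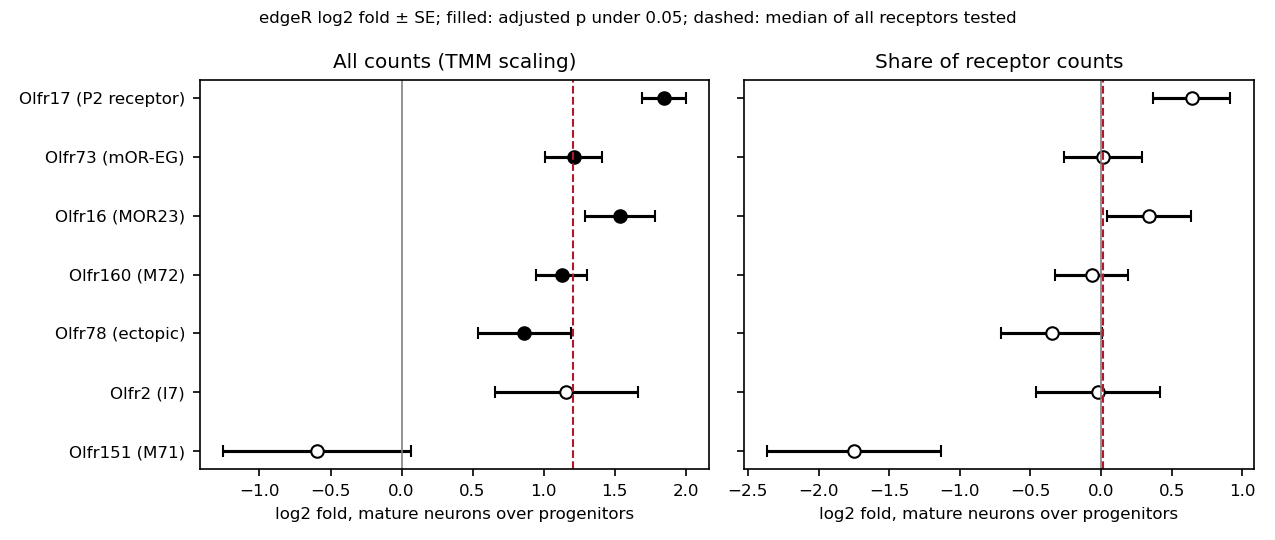
Log2 fold of mature neurons over progenitors with its SE, from edgeR, for each receptor over all counts (left) and as a share of receptor counts (right), with filled points for adjusted p under 0.05 and a dashed line at the median of all receptors tested. Over all counts 5 points are filled and the median is 1.21, and as shares 0 are filled and the median is 0.01.

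The third question was how the receptors changed over the first postnatal weeks. A slope shared by both pools, in log2 units per doubling of age, was called for 0 of 17975 genes (0%), with 3746 at an unadjusted p under 0.05 by edgeR, and for 0 genes by limma on log2(TPM + 1), with 3317 unadjusted. A difference of slopes between the pools was likewise called for 0 genes (0%), with 1075 unadjusted by edgeR and 980 by limma. Without the filter on low counts 770 genes had a called slope, and without the day 7 mature library 945 did.

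I7 had the steepest slope of the set. Olfr2 gained 0.61 log2 units per doubling of age (SE 0.12, edgeR adjusted p = 0.0617). Its share of receptor counts was 0.0372%, 0.0442% and 0.147% in mature neurons of days 2, 7 and 16, against 0.0492%, 0.0802%, 0.0837% and 0.0954% in progenitors by age. The 95% Wilson interval of the day 16 mature share, 0.136% to 0.160%, which covers counting error only, lay above the intervals of all other libraries. The slope passed the threshold with no filter on low counts (edgeR adjusted p = 0.0126) and without the day 7 mature library (edgeR adjusted p = 0.0131), and was 0.39 without the day 16 mature library. The other 6 members had shared slopes between -0.30 for Olfr78 and 0.11 for Olfr17, at adjusted p-values of 0.245 or more (edgeR).

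In mature neurons alone, comparing the single day 16 library with the single day 2 library, Olfr2 was 4.35 times higher in TPM and Olfr17 1.30 times higher. Olfr160, Olfr73, Olfr16, Olfr78 and Olfr151 were at 0.738, 0.626, 0.435, 0.365 and 0.205 of their day 2 level. On log2(TPM + 1), which damps low values, 1 member was at least 2-fold higher at day 16 and 2 (Olfr16 and Olfr78) at least 2-fold lower, where 13.1% and 17.6% of 1063 receptors were. Olfr2 ranked 25 of the 1063 in this ratio, whose median over receptors was -0.37, and it has no replicate check.

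The difference of slopes between the pools had an unadjusted p under 0.05 (edgeR) for 3 members, as for 1075 of all 17975 genes tested. The slope in mature neurons minus that in progenitors was -1.68 for Olfr151 (SE 0.37), -0.53 for Olfr16 (SE 0.14) and -0.37 for Olfr73 (SE 0.15). None of these 3 passed the threshold (edgeR adjusted p = 0.806 for each). The median of this difference over the 1070 receptor genes tested was -0.20, so receptors in general leaned the same way. Olfr16 held 0.241%, 0.187% and 0.112% of receptor counts in mature neurons of days 2, 7 and 16, against 0.152%, 0.128%, 0.122% and 0.167% in progenitors by age. Its share was thus higher in mature neurons at the early ages and lower at day 16. Olfr73 had the same order, with 0.154%, 0.137% and 0.0953% in mature neurons of days 2, 7 and 16, against 0.143%, 0.109%, 0.107% and 0.152% in progenitors by age.

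**Figure D4:**
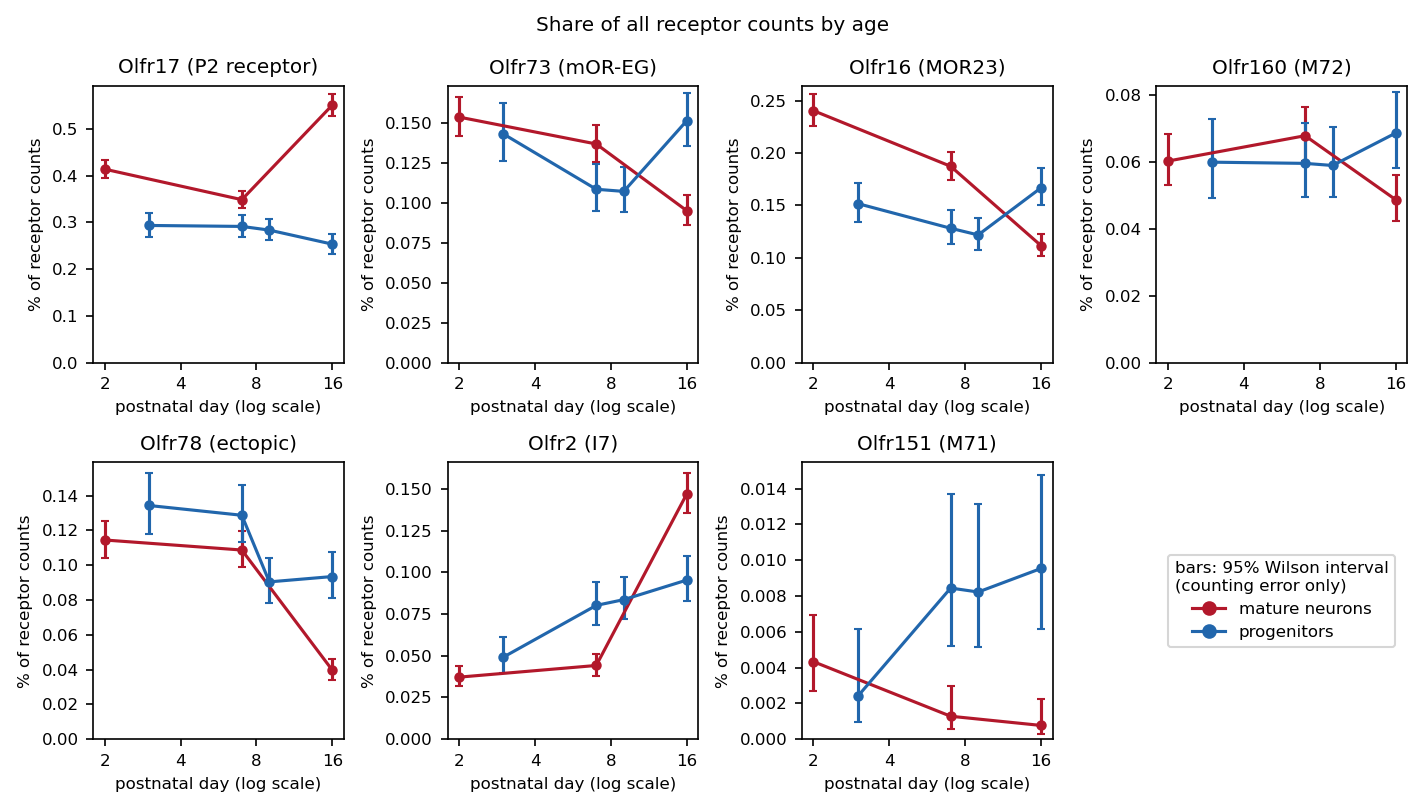
Share of all receptor counts (%) held by each receptor against postnatal day (log scale), in mature neurons (red, 3 libraries) and progenitors (blue, 4 libraries), with 95% Wilson intervals that cover counting error only; each panel has its own axis from 0. The lines of the 2 pools cross for Olfr73, Olfr16, Olfr160, Olfr2 and Olfr151 and not for Olfr17 and Olfr78; at day 16 the mature library holds 0.147% for Olfr2 and 0.112% for Olfr16.

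The day 16 mature library, on which several of these values rest, also stood apart in other respects. Its 8 leukocyte markers summed to 129 TPM, against 29.7 to 44.2 TPM in the other mature libraries and 12.4 to 30.4 TPM in progenitors. Of these 8, 7 were called higher in mature neurons, where 28.8% of all genes were. Among the dorsal zone genes, Nqo1 stood at 498 TPM in that library, against 1136 and 999 TPM in mature neurons of days 2 and 7, and Acsm4 at 174 TPM, against 422 and 398 TPM. Umodl1, of the same list, went the other way, with 749 TPM against 474 and 640 TPM, and Robo2 had 91.5 TPM against 89.2 and 105 TPM. The 10 mature neuron markers summed to 29876 TPM there, against 20969 and 19696 TPM in mature neurons of days 2 and 7. The rise in TPM was largest for S100a5 (11907 against 7302 and 5276 TPM) and Stoml3 (5090 against 2940 and 2944 TPM). Rtp1 (888 against 1072 and 1106 TPM) and Slc17a6 (189 against 222 and 195 TPM) of that list were lowest at day 16. The 10 immature neuron markers summed to 1272 TPM, against 1782 and 1829 TPM. The 10 progenitor markers summed to 93.4 TPM, against 148 and 178 TPM, and the 8 sustentacular markers, of the supporting cells, to 3168 TPM, against 4184 and 4188 TPM. Its 5 ventral zone genes summed to 147 TPM, against 106 and 136 TPM in mature neurons of days 2 and 7 and 192 to 237 TPM in progenitors. Of these, Nrp2 had 49.1 TPM there, against 38.3 and 55.0 TPM in mature neurons of days 2 and 7, and the others were highest at day 16 among mature libraries. M71 and M72 are known as dorsal receptors and P2 as a ventral one. The zones of the other members are not given here, so these values do not place the set by zone. The part of zone, of neuronal stage or of other cell types in the receptor values was not tested.

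The genes next to I7 on one side had a like course with age. The receptor whose log2(TPM + 1) followed that of Olfr2 most closely over the 7 libraries, among 1062 other receptors, was Olfr711 (Pearson r = 0.999 over 7 libraries that share population and age), which is also the next protein-coding receptor gene, 19946 bases away on the same strand. Olfr168 and Olfr1264 came next (r = 0.995 and 0.991). Beyond Olfr711 on the same strand lies Olfr6 (M50), another receptor long used in mapping studies.

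Olfr711 had 8.57, 9.33 and 29.3 TPM in mature neurons of days 2, 7 and 16, against 4.79, 9.26, 9.79 and 11.9 TPM in progenitors by age. Olfr6 had 27.9, 36.9 and 95.8 TPM in mature neurons of days 2, 7 and 16, against 9.27, 12.0, 15.9 and 21.6 TPM in progenitors by age. For Olfr6, Olfr711 and Olfr2 alike, the day 16 library was the highest within each pool. Their shared slopes were 0.52 for Olfr6 (SE 0.08), 0.56 for Olfr711 (SE 0.11) and 0.61 for Olfr2, at adjusted p-values of 0.0586, 0.0618 and 0.0617 (edgeR). The first equals the smallest adjusted p of any gene for the slope, a tied value that other genes shared.

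The other receptors within 100 kb of Olfr2, a window chosen after the values were seen, did not share the pattern in size. Relative to day 2, mature neurons of day 16 had 3.43 times the TPM of Olfr6, 3.42 times that of Olfr711 and 4.35 times that of Olfr2. For Olfr707, Olfr710, Olfr713, Olfr714 and Olfr17 the ratios were 0.658, 0.877, 0.742, 1.36 and 1.30. These 5 genes had slopes between -0.16 and 0.22, at adjusted p-values of 0.316 or more (edgeR). Whether the slopes of neighbouring genes differ from each other was not tested.

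**Figure D5:**
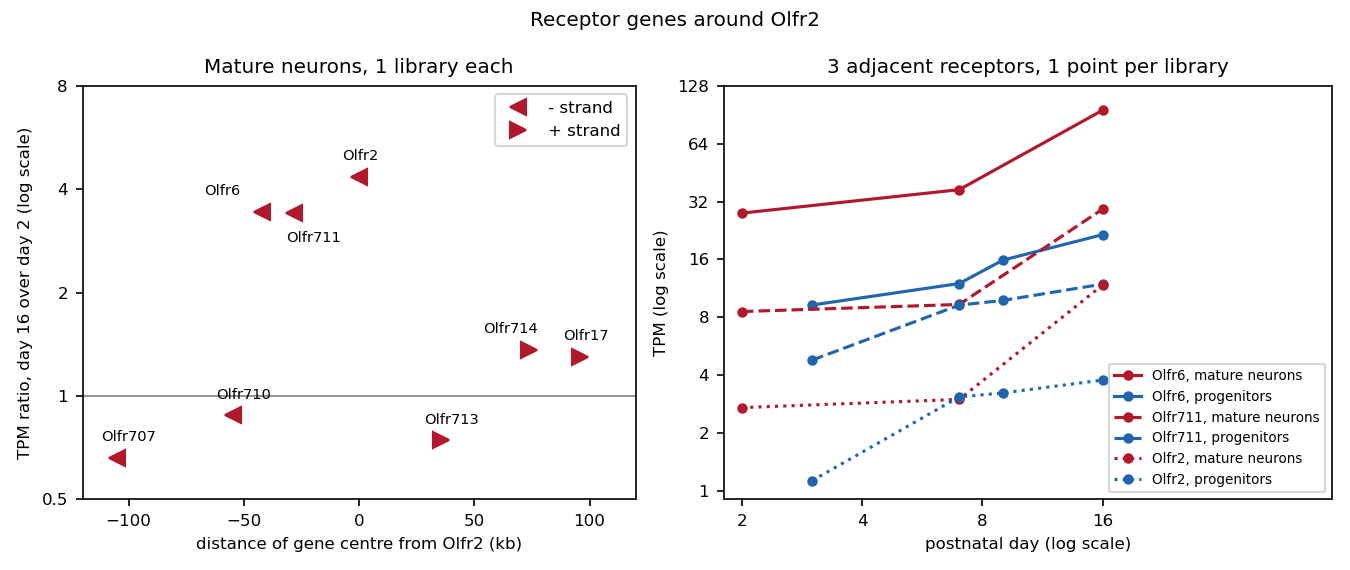
Left, TPM ratio of day 16 over day 2 in mature neurons (log scale, 1 library each) of the 8 protein-coding receptors within 100 kb of Olfr2, against the distance of each gene's centre from that of Olfr2, with arrows for the strand; right, TPM (log scale) of Olfr6, Olfr711 and Olfr2 against postnatal day in mature neurons (red) and progenitors (blue). The 3 adjacent genes lie between 3.42 and 4.35, and the other 5 between 0.658 and 1.36.

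Neighbours of the other members were mostly higher in mature neurons, as most receptors were. Olfr714 and Olfr715 beside P2 had log2 folds of 1.37 and 1.06 (edgeR adjusted p = 0.00423 and 0.00273), and Olfr874 beside M71 had one of 0.91 (edgeR adjusted p = 0.00104). Beside Olfr78, Olfr559 had 1.25 and Olfr561 had 0.86 (edgeR adjusted p = 0.00369 and 0.0405). Olfr1162 beside mOR-EG was higher by 1.25 (edgeR adjusted p = 0.000625), whereas Olfr1161 on its other side had 0.76 (edgeR adjusted p = 0.0659). Olfr1408, the nearest receptor to MOR23 at 169692 bases, had 1.74 (edgeR adjusted p = 0.00024).

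Over the 7 libraries the levels of Olfr73, Olfr16 and Olfr160 followed each other closely (Pearson r of log2(TPM + 1) of 0.97 between Olfr73 and each of the others, and 0.93 between Olfr16 and Olfr160). These libraries share the 2 populations, which alone separate the levels of these genes. Olfr2 and Olfr16 had r = 0.09, and Olfr151 had r between -0.47 and 0.05 with the other members. The receptors most like each of the remaining members, by the same measure, were Olfr902, Olfr558 and Olfr1051 for Olfr16 (r = 0.996, 0.996 and 0.992), Olfr119, Olfr1110 and Olfr1494 for Olfr17 (r = 0.998, 0.996 and 0.994), and Olfr1032, Olfr935 and Olfr884 for Olfr73 (r = 0.998, 0.994 and 0.992). For Olfr160 they were Olfr351, Olfr763 and Olfr1044 (r = 0.990, 0.990 and 0.987), and for Olfr78 they were Olfr1133, Olfr352 and Olfr317 (r = 0.991, 0.986 and 0.982). No receptor followed M71 as closely, the nearest being Olfr832, Olfr512 and Olfr1214 (r = 0.853, 0.841 and 0.786).

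A second group of 13 receptors used in earlier mapping and ligand work gave a similar picture. In mature neurons 10 of them were higher (76.9%) and 0 lower, near the 72.6% and 5.14% of all receptors tested. Their median log2 fold was 1.20, close to the 1.21 of all receptors. The folds were 2.17 for Olfr545 (SE 0.33), 1.93 for Olfr544 (SE 0.38), 1.79 for Olfr69 (SE 0.29), 1.6 for Olfr6 and Olfr558 (SE 0.42 and 0.23) and 1.52 for Olfr62 (SE 0.21). Olfr15, Olfr43, Olfr124 and Olfr1440 were called with folds of 1.20, 1.15, 0.92 and 0.85. Olfr74, Olfr1507 (MOR28) and Olfr1508 (MOR10) were not called, with folds of 0.80, 0.52 and 0.47 (edgeR adjusted p = 0.127, 0.421 and 0.429). MOR28, the highest of these 13, stood at 106 ± 64.1 TPM in mature neurons (SD, n = 3) and 79.7 ± 41.1 TPM in progenitors (SD, n = 4), a difference smaller than the spread between libraries.

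Genes on which receptors depend were compared in the same way. Receptors are brought to the ciliary membrane by transport proteins, signal through a cyclic AMP cascade, and are chosen by factors that act on receptor enhancers and on chromatin. Of 7 receptor trafficking genes, 3 were higher in mature neurons and 2 lower, with a median log2 fold of 0.44, where 28.8% and 30% of all genes were called higher and lower. Rtp1 and Rtp2, which carry receptors to the cell surface, had folds of 1.36 (SE 0.12) and 1.19 (SE 0.09), and Reep1 one of 1.45 (SE 0.11), while Reep5 was lower (-1.34, SE 0.23). Rtp1 reached 1022 ± 118 TPM in mature neurons (SD, n = 3) and 431 ± 44.6 TPM in progenitors (SD, n = 4).

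Of 20 odorant transduction genes, 16 were higher in mature neurons and 2 lower, where 28.8% and 30% of all genes were. Their median log2 fold was 1.52. Gng13, a G protein subunit, stood at 5012 ± 242 TPM in mature neurons (SD, n = 3) and 1742 ± 247 TPM in progenitors (SD, n = 4). Ano2, the calcium-activated chloride channel, and Slc24a4, the exchanger that ends the response, had log2 folds of 2.05 (SE 0.17) and 2.19 (SE 0.20), and Camk2a, a calcium-dependent kinase, had 1.14 (SE 0.09).

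Of 16 receptor choice genes, 13 were lower in mature neurons and 1 higher, with a median log2 fold of -0.66. Beside these counts and those of the zone genes below, 30% of all genes were called lower and 28.8% higher. Ldb1, which bridges receptor enhancers, had a fold of -1.30 (SE 0.10), as had Kdm1a, the histone demethylase that acts when a receptor is chosen (SE 0.08). Ehmt1, a histone methyltransferase, had -1.62 (SE 0.07) and Smchd1, a chromatin silencing protein, -2.09 (SE 0.12). In TPM the difference of Smchd1 was larger than in counts, at 37.8 ± 5.73 TPM in mature neurons (SD, n = 3) and 424 ± 56.2 TPM in progenitors (SD, n = 4). Of the 4 dorsal zone genes, Umodl1, Nqo1 and Acsm4 were higher in mature neurons (2.72, 1.28 and 1.14) and Robo2, a guidance receptor, lower (-0.53). Of the 5 ventral zone genes, Nfia, Nfib and Nrp2 were lower (-2.22, -0.92 and -0.90) and 0 higher.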

How the data were processed

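RNA was extracted with TRIzol from sorted cells and libraries were made with a TruSeq Stranded kit, per the labels' protocols. Per the submitters' processing notes, the tools were STAR 2.6.1c, bcl2fastq 2.18 and RSEM, and the build was mm10. For the annotation release and the strand setting, nothing is stated in the sources used here. The authors deposited whole-number read counts per gene and a table of TPM, scaled by them for length and library total. Entries of the count table that name no gene (23.5% to 27.2% of each library, multi-mapping reads 11.9% to 13.9%) were left out.

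The counts were tested with edgeR 4.0.16 in R 4.3.3 (quasi-likelihood, TMM scaling, filterByExpr, Benjamini-Hochberg at 0.05 over all genes tested) for population over all 7 libraries, for log2 of the postnatal day with population, and for their interaction. Receptor shares were tested over receptor genes with the library size set to their total. SEs come from the fold and its F statistic. Intervals are Wilson 95% and cover counting error only. Reads without molecular identifiers are not independent molecules. TPM gave levels, ranks, ratios and correlations on log2(TPM + 1). The fits were also run on simulated counts in which most genes were left unchanged. That run does not check them on data like these, where most genes were called between the populations.

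The alternatives were DESeq2 1.42.0, limma 3.58.1 on log2(TPM + 1) and log2(TPM + 0.1), other size factors, no filter, age as a block and each library left out. Replicate numbers are not shared in the labels. The rule for members uses no measured value, but members, lists and tests were chosen with earlier results of these data known. Named genes are the members, the 13 further receptors, up to 4 called genes per list by smallest p, the 3 receptors most like each member with a mean of at least 1 TPM, and the adjacent receptors; those within 100 kb of Olfr2 were added after their values were seen. Sequences and positions come from GENCODE M21 (GRCm38). The signature stretch of the other 3 members is not reported here.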

Additional observations from a re-analysis of the deposited data

Results flagged for a closer look

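Olfr73 (mOR-EG) at day 16 stood apart from the other progenitors, with 16.46 TPM against 11.4 to 11.9 TPM in the libraries of days 3, 7 and 9. Its gap to the nearest library, as a part of the whole range, was above Dixon's 95% critical value for 4 samples. All 7 receptors were examined in this way in progenitors, and chance gives such a value in about 1 in 20 groups. The mature neuron group of 3 libraries is too small for this rule.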

How the results depend on the processing

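The alternatives gave 315 values for the members, of which 266 kept direction and side of the threshold, 29 changed sign, 11 came past the threshold and 9 lost it. The folds over all counts kept their sign throughout, and Olfr16, Olfr17, Olfr73 and Olfr160 remained called in every alternative. The 10565 genes called between the populations split into 5180 higher and 5385 lower, against 4026 and 6280 by limma on log2(TPM + 1); on log2(TPM + 0.1) the median of all genes was -0.12 in place of 0.01. Without single libraries, Olfr2 had a fold of 0.24 to 1.49 and Olfr78 one of 0.63 to 1.21. Called age slopes numbered 770 without the filter and 0 to 945 without single libraries, members 1 and 0 to 1, and slope differences 0 to 2. Called receptor shares numbered 147, 82 with age as a block and 102 to 431 without single libraries, and members 1 by limma and 0 to 2. Signs changed for the age slope of Olfr160 on log2(TPM + 1) and log2(TPM + 0.1) (-0.0488 and -0.0522), the slope difference of Olfr2 on log2(TPM + 0.1) (-0.0594), and the shares of Olfr16 (-0.0179) and Olfr73 (-0.169) with age as a block. Without single libraries, age slopes ran from -0.60 to 0.67 for Olfr151, -0.27 to 0.0447 for Olfr16, -0.0271 to 0.17 for Olfr160, -0.00959 to 0.17 for Olfr17 and -0.18 to 0.071 for Olfr73. Slope differences ran from -0.20 to 0.50 for Olfr17, -0.40 to 0.93 for Olfr2 and -1.12 to 0.0555 for Olfr78. Shares ran from -0.18 to 0.0517 for Olfr160, -0.93 to 0.31 for Olfr2, -0.14 to 0.19 for Olfr73 and -0.59 to 0.00095 for Olfr78. The cause was not tested. With 3 to 20 counts per library M71 cannot be placed precisely.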
